A study of Mus musculus with 2 samples.

Results

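Suffix incomplete matches are spliced transcript models that hold only the 3′ part of the exon chain of a longer transcript, with one or more exons absent at the 5′ end. The structures described here are the abundant ones. They carry the suffix label in the deposited annotation, have 2 or more exons, and reached 10 or more reads in at least 1 of the 2 libraries. By this rule 803 structures were found among 32820 spliced suffix structures (2.45%) and 132731 spliced structures of any class. The reads that chose them are therefore given as a description, with no test. Both libraries are long-read RNA sequencing of hippocampus (in the labels, layer of hippocampus) from male B6CASTF1/J mice, hybrids of C57BL/6J and CAST/EiJ, at 14 days, with 3 males pooled and 2 µg of total RNA per library and ERCC and SIRV spike-ins added. The labels call them biological replicates 1 and 2, and as they form 1 group there is no contrast between conditions. Each sample's own label names its own animals, but the experiment's description repeats 1 set of animals for the pair, and how far the libraries differ may therefore be technical. The tissue label was checked against genes of hippocampal pyramidal and granule cells. Neurod6 had 204 and 159 reads, Wfs1 127 and 139, Zbtb20 77 and 83, Neurod2 70 and 73, and Prox1 12 and 20, in replicates 1 and 2 in that order.

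A long-read structure can begin downstream of the annotated first exon for several textbook reasons. RNA polymerase II may start at an internal promoter, so that the shorter RNA is complete and has its own cap. Reverse transcription may stop, or the RNA may be broken, before the cap is reached, so that the cDNA is cut short although the RNA was longer. Both leave the same exon chain in a gene model, and neither library here holds a measurement of the cap. The positions, neighbours and coding content of the 5′ ends are therefore described below, and which of these processes made a given end was not tested.

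For structures whose model began exactly at the edge of an annotated coding exon, the sequence across that edge shows what the model kept. Each of the following runs gives the last 30 bases of the absent exon in lower case and the opening 30 bases of the structure in capitals, from GENCODE M21 transcripts on mm10. They are shown because these structures were among those with the most reads that lost the annotated start codon at a coding exon edge.
Ncdn, exon 4 of 8 of Ncdn-202, capitals at chr4:126750824-126750853, minus strand: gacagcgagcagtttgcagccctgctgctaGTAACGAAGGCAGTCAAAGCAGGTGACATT
Ndufa4, exon 4 of 5 of Ndufa4-204, capitals at chr6:11905233-11905262, minus strand: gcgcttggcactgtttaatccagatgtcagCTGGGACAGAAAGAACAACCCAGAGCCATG
Gpm6a, exon 2 of 7 of Gpm6a-201, capitals at chr8:55037328-55037357, plus strand: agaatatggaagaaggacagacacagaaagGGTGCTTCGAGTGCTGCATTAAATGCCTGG
Syp, exon 6 of 7 of Syp-201, capitals at chrX:7648557-7648586, plus strand: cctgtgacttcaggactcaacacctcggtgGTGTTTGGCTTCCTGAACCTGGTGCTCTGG
Pink1, exon 5 of 9 of Pink1-203, capitals at chr4:138318049-138318078, minus strand: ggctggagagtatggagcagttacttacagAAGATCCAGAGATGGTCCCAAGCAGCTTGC
In the annotated reading frame the Ncdn structure opened at codon 59 of 729, and its next in-frame ATG was codon 151. The Pink1 structure opened at codon 228 of 550, with the next in-frame ATG at codon 267, and the Syp structure at codon 207 of 314, with the next at codon 234. The Ndufa4 structure opened at codon 44 of 82 and held no further in-frame ATG. These codons are counted from the model's end on the exon edge, and where reads begin within the exon was not measured.

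The libraries held 821324 mouse reads in replicate 1 and 743862 in replicate 2, so that 10 reads equal 12.2 and 13.4 CPM, reads scaled to the mouse reads of the library. Suffix structures took 6.65% and 6.74% of the mouse reads. Of those suffix reads the abundant structures held 36.7% in replicate 1, with a 95% Wilson interval of 36.3 to 37.1, and 37.2% in replicate 2, with an interval of 36.8 to 37.7. The mean was 37.0% ± 0.374 (SD, n = 2). They held 2.55% and 2.59% of all mouse reads. All intervals cover counting error only. The reads carry no molecular identifiers in the deposited tables.

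Most structures were seen in both libraries. Reads were present in both for 787 of the 803, and 462 reached 10 reads in both. Another 213 reached 10 in replicate 1 alone and 128 in replicate 2 alone. For 24 structures the other library's annotation gave the same introns another class. Among the 84 structures that only just met the rule, with 10 reads at most in either library, Abhd16a (3 exons) had 10 and 8 reads, Abhd17a (4 exons) 10 and 10, and Ache (4 exons) 10 and 7. Just below it were 136 structures with 9 at most. Among them 1700021F05Rik (2 exons) had 3 and 9 reads, 2610507B11Rik (24 exons) 5 and 9, and AC149090.1 (5 exons) 9 and 6.

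The levels of the 2 libraries were set side by side as the ratio of replicate 1 over replicate 2, on CPM with 0.5 read added. The ratio was 2-fold or more in either direction for 145 of the 803 structures, beside 9.24% of the 9311 spliced structures of known genes with 10 or more reads in either library. Replicate 1 was higher for 80 of them (beside 4.95%) and replicate 2 for 65 (beside 4.29%). The rule read these values, so nothing is drawn from the gap, and most members lie near the threshold. Among the 212 structures with 40 or more reads over both libraries, 9 were 2-fold or more apart, beside 1.96% of the 4947 structures of any class at that depth. Between the libraries, log2 CPM of the 787 structures found in both correlated with r = 0.77 (Pearson) and rho = 0.64 (Spearman). The points share the 2 libraries and were chosen on these reads.

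**Figure D1:**
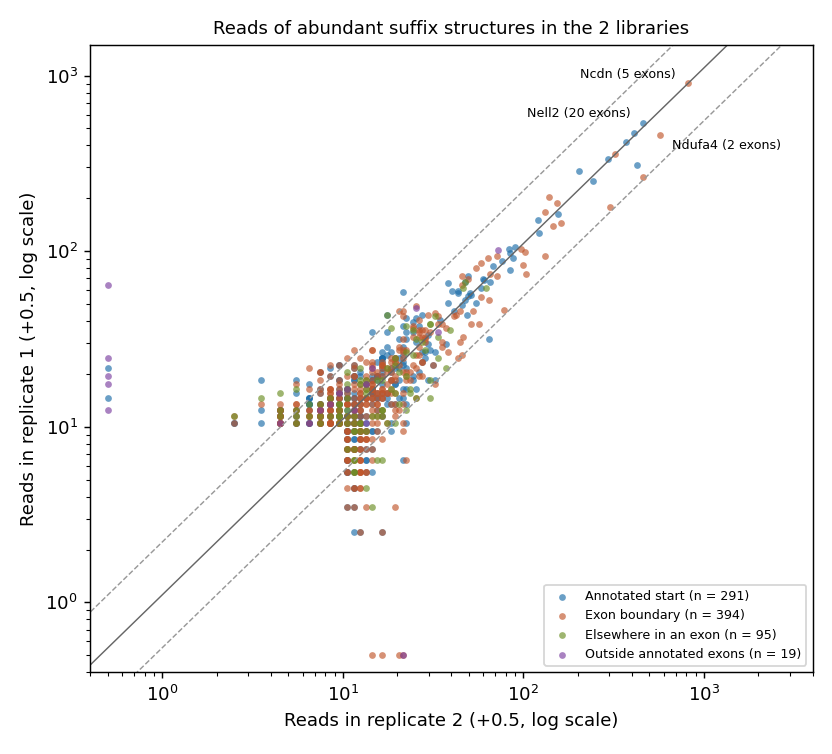
Reads of each abundant suffix structure in replicate 1 (vertical, log scale) against replicate 2 (horizontal, log scale), with 0.5 read added, coloured by where the model's 5′ end lies; the solid line marks equal CPM and the dashed lines 2-fold. Ncdn, with 901 and 817 reads, stands alone at the top, and the band at the lower left comes from the rule of 10 reads in either library.

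The largest differences between libraries followed the naming of the gene. By gene, 16 structures had reads in 1 library alone, and for 15 of these the same introns stood in the other library under another gene. The 2-exon Ccdc159 structure had 24 and 0 reads, and the same introns had 0 and 21 under Plppr2, a phospholipid-phosphatase-related membrane protein. A 30-exon structure was assigned to Pde2a, a cyclic nucleotide phosphodiesterase, with 21 and 0 reads, and to Gm45837 with 0 and 21. The exception was a 7-exon structure of Anapc5, a subunit of the anaphase-promoting complex, with 14 and 0 reads. Without the gene, 797 distinct intron chains met the rule.

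The 799 structures in known genes came from 572 genes, of which 452 had 1 structure, 120 had 2 or more and 16 had 5 or more. The other 4 lay in antisense genes that the deposited annotation made for each library. The model's 5′ end was placed in 1 of 4 positions. It was taken from the library that gave the suffix label or, where both did, from the one with more reads. It lay at an annotated start, within 50 bases of the start of any GENCODE M21 transcript of the gene, for 291 structures (36.4%). It fell exactly on the 5′ edge of an annotated exon for 394 (49.3%), elsewhere in or within 20 bases of an exon for 95 (11.9%), and outside annotated exons for 19 (2.38%). Among the 31967 other suffix structures of known genes the same positions held 22.7%, 63.1%, 11.7% and 2.46%. Structures whose model end lay at an annotated start held 41.1% of the abundant structures' reads, and those with an exon-edge end held 49.1%. Among the other suffix structures these shares of reads were 25.3% and 60.1%. Where single reads begin was not measured.

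Most deposited ends lay on an annotated start or exon edge to the base, and these were not taken as the ends of single reads. Whether ends elsewhere in exons or outside them are ends of single reads was not tested. Of the 799 ends, 290 lay on an annotated start to the base and only 23 lay 1 to 500 bases from one. In 11 structures the first exon of the model was under 30 bases long, and that of Pld3 was 2 bases. Among structures found in both libraries, the 2 ends lay within 50 bases for 668 of 787 (84.9%). This share was 364 of 390 (93.3%) at exon edges and 49 of 95 (51.6%) elsewhere in exons. An exon edge that 2 libraries share was thus taken as a placed position, and its recurrence was not read as support for a start there.

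**Figure D2:**
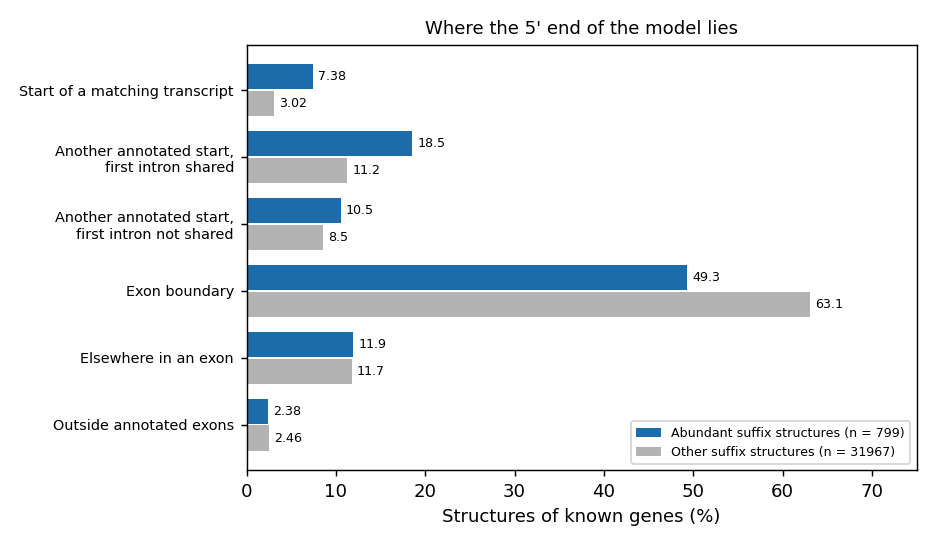
Share of structures of known genes (horizontal, %) by the position of the model's 5′ end, for the 799 abundant suffix structures (blue) and the 31967 other suffix structures (grey). Exon boundaries held 49.3% of the abundant structures and 63.1% of the others, and the 3 kinds of annotated start together held 36.4% and 22.7%.

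The annotated starts were of 3 kinds. In 59 structures the end was the start of a matching transcript itself, that is, of an annotated transcript whose exon chain ends with that of the structure. All 59 held an annotated intron of that transcript wholly inside their first exon, with a median length of 237 bases and a range of 73 to 1333. Of the 965 other suffix structures of this kind, 963 held one as well. This follows nearly by construction, since a model that shares the start but lacks the first intron must span it. Nothing is drawn from it. The models of the 59 structures began at the full-length start, and 47 of the 59 were short of exactly 1 exon by count. Whether their reads reach that start or cross the enclosed intron was not measured. In 148 structures the end was the start of another annotated transcript of the gene that also shared the structure's first intron. In the remaining 84 it was the start of another transcript with a different first intron or none. Of the 148, the transcript that starts there was annotated as a retained-intron transcript for 64 and as protein coding for 57. Among the 3583 other suffix structures of this kind, these counts were 1716 and 998.

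The structures whose model end lay at a full-length start included Nell2, a secreted neuronal glycoprotein. Its 20-exon structure had 537 reads in replicate 1 and 462 in replicate 2. Compatible reads are those of the structure plus those of the annotated transcripts that hold its whole exon chain, and this structure took 71.2% of them in replicate 1 (67.9 to 74.3) and 69.9% in replicate 2 (66.3 to 73.3). Its first exon was 452 bases long and enclosed an annotated intron of 344 bases. Actg1, cytoplasmic gamma-actin, had 69 and 59 reads of a 4-exon structure with a 93-base intron enclosed, at 4.07% and 4.29% of compatible reads. Hnrnpf, a splicing-related RNA-binding protein, had 66 and 47 reads of a 4-exon structure with a 309-base intron enclosed, and Eif4g2, a translation initiation factor, 59 and 43 reads of a 21-exon structure with a 138-base intron enclosed. For both the matching annotated transcripts were listed at 0 in either library, while of all reads of the gene the structures took 34.9% and 30.7% for Hnrnpf and 8.64% and 6.64% for Eif4g2. Zfr, a zinc finger RNA-binding protein, had 45 and 41 reads of a 19-exon structure with a 291-base intron enclosed, at 57.0% and 46.1% of compatible reads and 29.8% and 23.8% of all reads of the gene. Over all positions 109 structures enclosed an annotated intron of a matching transcript in their first exon, of which 90 were 500 bases or shorter (82.6%). At the start of a matching transcript the count was 49 of 59, beside 581 of the 963 other suffix structures that enclosed one.

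The ends were also set beside the starts of a second annotation. RefSeq lists a start for the gene of 607 of the 799 structures, and 58 ends lay within 50 bases of one. These were 29 of 39 at the start of a matching transcript, 20 of 120 at another annotated start with the first intron shared and 9 of 62 at another without it. Among the other suffix structures these counts were 437 of 772, 127 of 2913 and 192 of 2155. None of the 295 at exon edges, of the 78 elsewhere in exons or of the 13 outside exons lay that close. At exon edges 12 of 15899 other suffix structures did. These positions exclude ends within 50 bases of a GENCODE start, so low counts there follow largely from the classing. Within 100 bases the count at exon edges was 1, the 12-exon structure of Psmc2.

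Of the 9 structures with the most reads among those that opened within 100 bases of a RefSeq start, the upstream sequence is shown for the 4 whose printed bases before that start held no GENCODE exon of the gene. Each run gives 120 bases before the RefSeq start in lower case and 30 bases from it in capitals, from RefSeq on GRCm38.p6 (mm10).
Clcn4, chr7:7298807-7298956, minus strand: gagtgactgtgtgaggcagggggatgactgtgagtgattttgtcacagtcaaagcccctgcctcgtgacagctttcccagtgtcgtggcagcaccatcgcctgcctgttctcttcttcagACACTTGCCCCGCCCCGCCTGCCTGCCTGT
Dctn1, chr6:83185826-83185975, plus strand: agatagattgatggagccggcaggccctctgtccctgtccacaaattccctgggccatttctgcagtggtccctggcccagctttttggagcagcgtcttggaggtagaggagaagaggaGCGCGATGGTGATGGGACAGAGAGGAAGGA
Hnrnpf, chr6:117906662-117906811, plus strand: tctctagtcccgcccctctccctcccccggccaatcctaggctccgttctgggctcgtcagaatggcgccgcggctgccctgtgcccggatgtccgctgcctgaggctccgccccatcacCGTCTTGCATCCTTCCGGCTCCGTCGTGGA
Slc27a1, chr8:71570474-71570623, plus strand: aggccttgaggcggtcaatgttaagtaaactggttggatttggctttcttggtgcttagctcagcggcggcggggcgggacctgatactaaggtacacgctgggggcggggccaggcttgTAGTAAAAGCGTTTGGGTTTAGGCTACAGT
Over the 250 bases before the RefSeq start, searched on both strands, the Hnrnpf and Slc27a1 windows held GGGCGG 3 times each, and the Clcn4 and Dctn1 windows did not hold it. The capitals of Clcn4, from the RefSeq start on, hold it 1 time on the opposite strand, before the structure's own end. None of the 4 windows held TATAAA on either strand. Slc27a1, a fatty acid transport protein, had 57 and 50 reads of a 12-exon structure that opens 61 bases downstream of its RefSeq start. Of the 56 RefSeq windows with a structure's end within 50 bases, 34 held GGGCGG (60.7%) and 0 held TATAAA. Of all 32851 RefSeq windows, 32.7% held GGGCGG and 12.4% held TATAAA. A match is a run of letters and was not tested as a binding site.

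Among ends at another annotated start, Cpne6, a calcium-dependent phospholipid-binding protein, had 473 and 411 reads of a 17-exon structure that opens at Cpne6-203 and matches no annotated exon chain. It carried the suffix label in replicate 1, and in replicate 2 the same introns were given another class. Clcn4, an endosomal chloride/proton exchanger, had 162 and 156 reads of a 12-exon structure that opens 65 bases downstream of a RefSeq start. It took 97.6% (94.0 to 99.1) and 96.9% (92.9 to 98.7) of compatible reads, and the longer matching transcript, Clcn4-201, had 4 and 5. Of all reads of the gene, which include other exon chains, it took 60.4% and 59.5%. Prkar1a, a regulatory subunit of protein kinase A, had 150 and 120 reads of an 11-exon structure, with 7 and 3 reads of matching transcripts. Its end lay 33 bases downstream of a RefSeq start in replicate 1, and 1170 bases further upstream in replicate 2. Of all reads of the gene it took 20.9% (mean of the libraries). Atp5f1, the b subunit of the ATP synthase stalk, had 250 and 244 reads of a 7-exon structure that opens at Atp5f1-203, with 0 reads of matching transcripts in both libraries. Ctsa, the lysosomal protease cathepsin A, had 102 and 83 reads, and Pde1a, a calmodulin-stimulated phosphodiesterase, 97 and 84, each with 0 reads of matching transcripts. Dctn1, the large dynactin subunit, had 91 and 87 reads of a 26-exon structure that opens on a RefSeq start to the base, at Dctn1-202.

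Further structures opened at other annotated starts, some deep in the gene and some near its 5′ end. Ppp2r1a, the scaffold subunit of protein phosphatase 2A, had 336 and 295 reads of an 11-exon structure that opens at the retained-intron transcript Ppp2r1a-206 and is short of 4 exons, with 33.4% and 32.8% of compatible reads. Atp5b, the catalytic beta subunit of ATP synthase, had 310 and 427 reads of a 2-exon structure at the processed transcript Atp5b-204, short of 8 exons and with 13.6% of the coding bases left. Its share of compatible reads was 22.3% in replicate 1 and 32.4% in replicate 2, with Wilson intervals that do not overlap. Pld3, a lysosomal exonuclease, had 418 and 371 reads of a 12-exon structure with 89.7% and 92.5% of compatible reads. That structure kept the annotated start codon, and it carried the suffix label in replicate 2 alone. In replicate 1 the same introns were given another class. Atp5j, coupling factor 6 of ATP synthase, had 127 and 121 reads of a 4-exon structure at the retained-intron transcript Atp5j-211, with 84.7% and 81.8% of compatible reads. Uchl1, an abundant neuronal deubiquitinase, had 286 and 204 reads of an 8-exon structure whose introns match no annotated chain. In replicate 2 it carried the suffix label and opened at Uchl1-201, 30 bases upstream of a RefSeq start. In replicate 1 the same introns were given another class, and the end lay 151 bases further downstream.

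Ends on exon edges, the largest class, carried the most abundant structure of all. Ncdn, the neuronal protein neurochondrin, had 901 reads in replicate 1 and 817 in replicate 2 of the 5-exon structure that opens at exon 4, an exon of 969 bases. It took 62.1% of compatible reads in replicate 1 (59.6 to 64.6) and 60.6% in replicate 2 (57.9 to 63.1). The Ncdn structures 1 exon longer and 1 exon shorter had 285 and 34 reads over both libraries. In the model of this structure 92.0% of the coding bases remained, counted from the exon edge shown above onward. Ndufa4, a subunit associated with cytochrome c oxidase, had 461 and 568 reads of its 2-exon structure, 61.4% and 65.1% of compatible reads, and 3 reads over both libraries 1 exon longer. Pink1, a mitochondrial quality-control kinase, had 188 and 153 reads of its 5-exon structure, 69.6% and 64.3% of compatible reads, with 2 reads over both libraries 1 exon longer and 1 read 1 exon shorter.

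Gpm6a, a neuronal membrane glycoprotein, had 357 and 323 reads of the 6-exon structure that lacks exon 1, at 32.7% and 33.5% of compatible reads. Syp, the synaptic vesicle protein synaptophysin, had 204 and 138 reads of its 2-exon structure, at 19.4% and 17.5%. Cpe, the prohormone-processing carboxypeptidase E, had 166 and 132 reads of its 8-exon structure, 3.65% and 3.66% of compatible reads, as the annotated transcript had 4376 and 3474.

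Some exon-edge structures kept the annotated start codon, 42 of the 381 with a coding match. Ndufa13, a complex I subunit, had 145 and 162 reads of a 4-exon structure that opens 288 bases downstream of the RefSeq start, and no read of a matching transcript in either library. Psmc2, an ATPase subunit of the proteasome, had 99 and 102 reads of a 12-exon structure that opens 97 bases upstream of the RefSeq start, and again no read of a matching transcript. In both the 0 reads bound the share at 97.4% and 96.3% or more in replicate 1, and at 97.7% and 96.4% or more in replicate 2, for Ndufa13 and Psmc2 in that order.

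How reads spread over possible first exons differed between genes. In Ncdn, exon 4 of Ncdn-202 opened 78.6% of suffix reads in replicate 1 and 78.8% in replicate 2. In Pink1 exon 5 opened 90.8% and 91.6%, and in Ndufa4 exon 4 opened 99.8% and 99.6%. Adgrb2, an adhesion receptor, had 9 structures and reads at 21 of 26 possible exons of Adgrb2-207, with 30.5% and 30.3% in exon 7. Camk2b, a subunit of the calcium/calmodulin kinase of synapses, had 7 structures and reads at 17 of 19 possible exons of Camk2b-209, with 49.5% and 47.0% in exon 11. Hsp90ab1, the constitutive cytosolic Hsp90, had 7 structures, and its suffix reads opened at all 9 possible exons of Hsp90ab1-201. Its leading exon, exon 5, had 36 and 24 reads, 29.5% and 24.0% of its suffix reads, and the others had between 1 and 24 in either library.

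**Figure D3:**
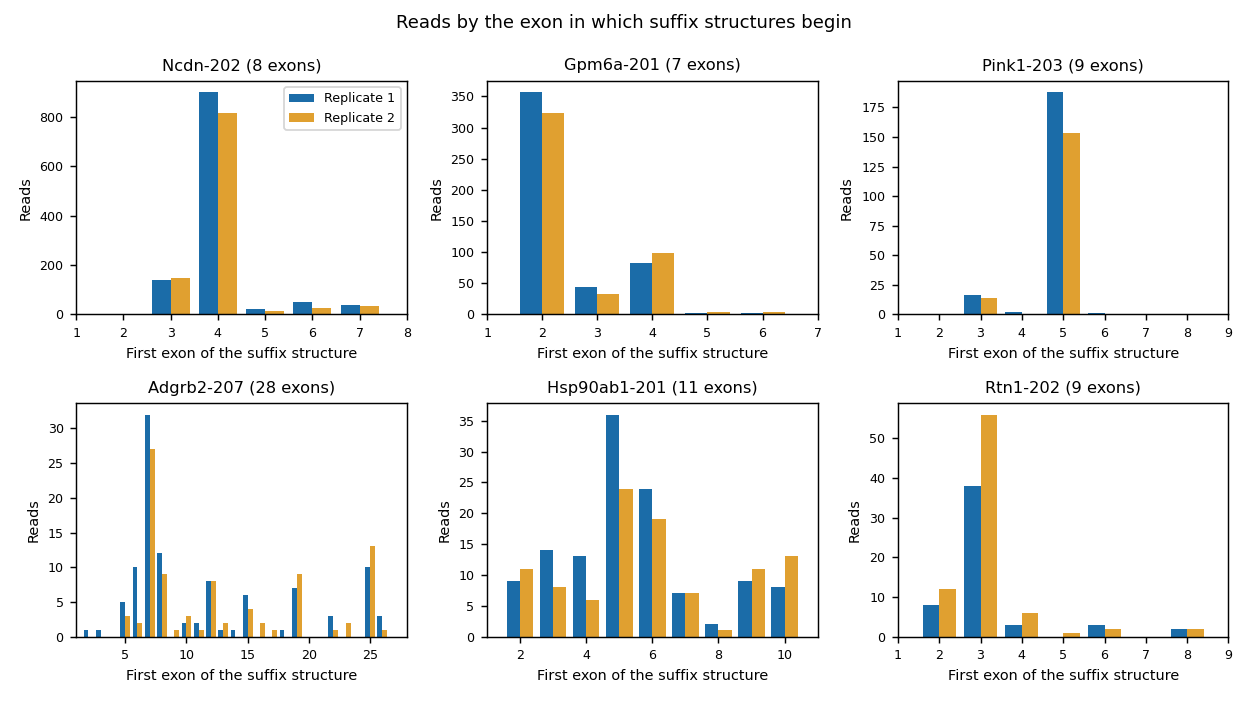
Reads (vertical) of suffix structures that open in each exon of the named transcript (horizontal, exon number from the 5′ end) in replicate 1 (blue) and replicate 2 (orange) for 6 genes; annotated shorter transcripts are not drawn. In Ncdn, Gpm6a, Pink1 and Rtn1 a single exon holds most reads. The leading exon holds 29.5% and 24.0% in Hsp90ab1 and 30.5% and 30.3% in Adgrb2. Reads open in 9 of 9 possible exons in Hsp90ab1 and 21 of 26 in Adgrb2. In the other genes they open in 5 of 6 (Ncdn), 5 of 5 (Gpm6a), 4 of 7 (Pink1) and 6 of 7 (Rtn1).

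Reads of each structure were also set against those of the suffix structures 1 exon longer and 1 exon shorter. Both such positions existed for 457 structures, and 232 of these (50.8%) had 5-fold or more the reads of either neighbour. Annotated full-length forms are not counted as neighbours. Another 331 structures had a neighbour on 1 side alone and are left out. The count was 44 of 68 at another annotated start with the first intron shared (64.7%), 16 of 38 without it (42.1%), 129 of 265 at exon edges (48.7%) and 39 of 65 elsewhere in exons. At the start of a matching transcript 11 structures had both neighbours, and 3 met this ratio. Outside exons it was met by 1 of 10. Among other suffix structures it held for 44.1% at exon edges and 44.8% elsewhere in exons. At another annotated start it held for 42.0% with the first intron shared and 39.2% without it. It held for 48.9% at the start of a matching transcript and 52.3% outside exons. A structure whose neighbours both had 0 reads meets the ratio whatever its own reads, so the 2 sets are not alike. Because the structures were chosen for high reads, these shares are a description.

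Ends elsewhere in an exon often fell in long exons. Jph4, a junctophilin that ties the plasma membrane to the endoplasmic reticulum, had 61 and 62 reads of a 4-exon structure, 46.6% and 46.3% of compatible reads and 28.9% and 27.9% of all reads of the gene. Aatk, a neuronal kinase, had 66 and 47 reads of a 4-exon structure with a first exon of 1011 bases in the model, at 78.6% and 65.3% of compatible reads and 57.4% and 43.1% of all reads of the gene. Wdr6, a WD-repeat protein, had 61 and 46 reads of a 5-exon structure with a first exon of 1053 bases, and its 2 libraries placed the end 680 bases apart. The annotated exon in which these structures opened had a median length of 499 bases, against 163 for the other suffix structures with such an end. At exon edges the medians were 165 and 135 bases.

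Ends outside annotated exons of the assigned gene numbered 19, in 10 genes, and in 15 of them all introns lay in an annotated transcript of another gene. Gm45837 had 101 and 72 reads of a 30-exon structure with the introns of Pde2a. Parp6 had 5 structures with the introns of Pkm, the pyruvate kinase of glycolysis, led by a 10-exon one with 15 and 9 reads. Among the rest, Grina, a glutamate receptor-associated protein, had 47 and 25 reads of a 6-exon structure whose ends lay 563 bases apart between libraries. Nfix, a nuclear factor I transcription factor, had 34 and 33 reads of a 9-exon structure 125 bases downstream of a RefSeq start, and its 2 ends lay 435 bases apart.

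The length of what was missing varied with the position of the end. A longest matching annotated transcript was found for 745 structures, and the median number of exons missing was 3, against 6 for the other suffix structures. Exactly 1 exon was missing in 233, 5 or more in 312 and 10 or more in 160. The median was 1 at annotated starts, 5 at exon edges, 3 elsewhere in exons and 2 outside exons. Of the 233 short of 1 exon, 142 opened at an annotated start and 148 kept the annotated start codon. At the far end, Hectd4, a large HECT-domain ubiquitin ligase, had 12 and 12 reads of a 3-exon structure short of 73 exons. Sptan1, the alpha spectrin of neurons, had 17 and 12 reads of a 5-exon structure short of 52, and Ttc3, a ubiquitin ligase, 16 and 8 reads of a 5-exon structure short of 41. The matching annotated transcripts of Hectd4 and Sptan1 had no read in either library.

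**Figure D4:**
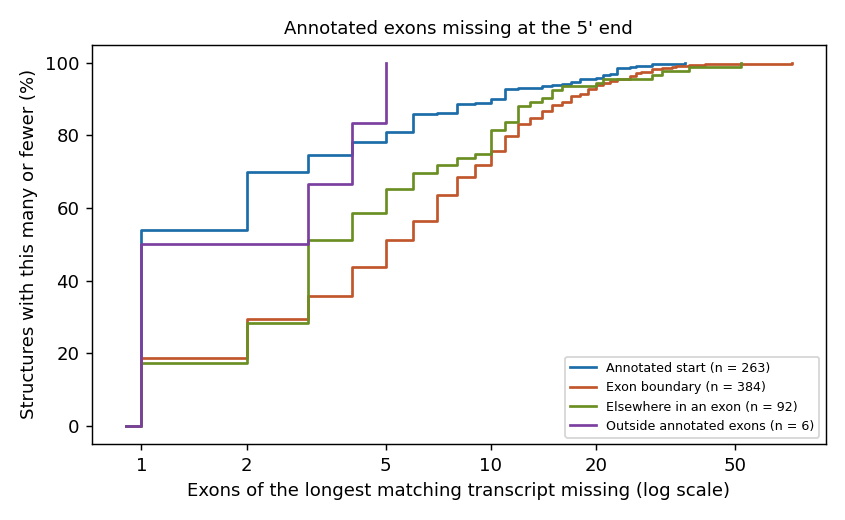
Cumulative share of structures (vertical, %) by the number of exons of the longest matching transcript that were missing at the 5′ end (horizontal, log scale), for the 4 positions of the end. At annotated starts the median was 1 exon and at exon boundaries 5, and the longest run missing was 73 exons, in Hectd4.

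The annotated start codon was kept in 175 of 739 structures with a coding match (23.7%), against 8.41% of the other suffix structures. It was kept in 48 of 58 at the start of a matching transcript, in 52 of 128 at another start with the first intron shared, in 30 of 74 without it, in 42 of 381 at exon edges and in 2 of 92 elsewhere in exons. Of the 564 that lost it, 312 kept 50% or more of the coding bases and 10 kept none. Hnrnpa2b1, an RNA-binding protein, had 93 and 131 reads of a 2-exon structure with 5.57% of the coding bases left. Coding content was counted from the model's 5′ end, and reads that begin further downstream would hold less. Whether any of these structures is translated was not measured.

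Some abundant structures were the main form of their exon chain. Their median share of compatible reads was 21.3% ± 0.40 (mean and SD of the library medians, n = 2), against 2.48% ± 0.216 for the other suffix structures. The rule chose structures on the reads that this share counts, so a gap arises by construction and nothing is drawn from it. In both libraries 192 of 745 held 50% or more, and 111 held 90% or more. In 82 (11.0%) the matching annotated transcripts had 0 reads in both libraries. At exon edges, the largest class, this held for 44 of 384, beside 2428 of 18432 other suffix structures. The lack of matching reads was thus not particular to the abundant structures there. Of the same 384, 57 held 90% or more in both libraries, beside 432 of the 18432. The share was highest where the longest matching transcript was long. Where that transcript was over 6 kb, 74 structures had a median share of 80.2% and 78.5%. At 4 to 6 kb, 139 had 46.6% and 48.8%, and at 2 to 3 kb, 180 had 11.7% and 11.5%. Under 1 kb, 45 structures had 24.5% and 23.3%. Over the 745 structures Spearman's rho between share and length was 0.31, with the libraries and often the gene shared between points. The share of structures that opened at an annotated start ran the other way, with 27 of 45 under 1 kb, 68 of 180 at 2 to 3 kb (37.8%) and 9 of 74 over 6 kb (12.2%).

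**Figure D5:**
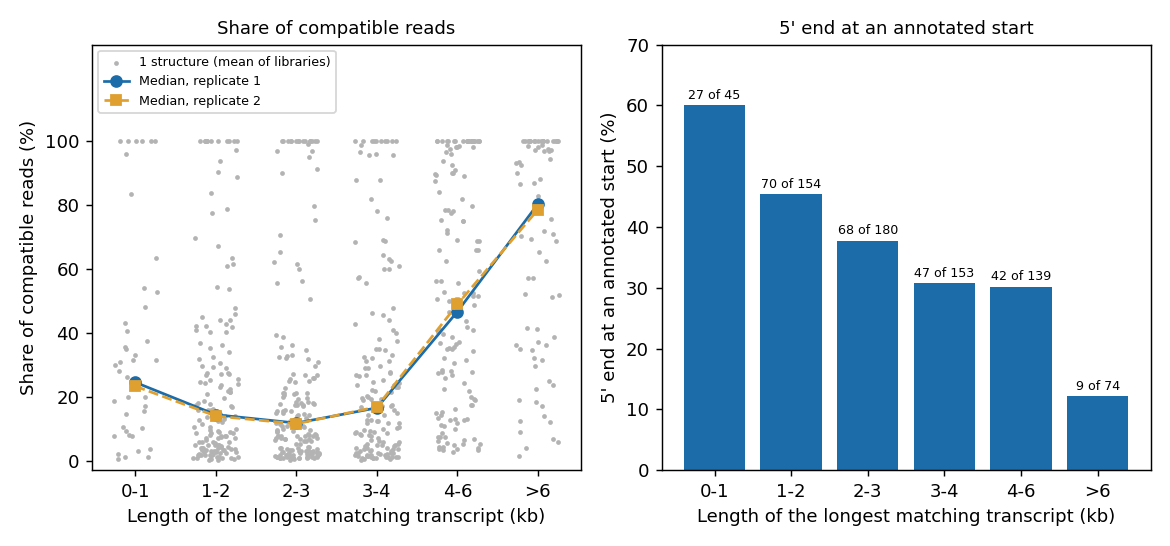
Left, share of compatible reads (vertical, %) of each abundant structure by the length of its longest matching transcript (horizontal, kb), with the median of each library; right, share of structures whose 5′ end lies at an annotated start (vertical, %) over the same lengths. The medians reach 80.2% and 78.5% over 6 kb, where 9 of 74 structures opened at an annotated start.

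Genes with a member were counted in lists of known function. Over all genes with 100 or more reads over both libraries, 443 of 3114 had an abundant suffix structure (14.2%). The astrocyte list had 10 of 20 such genes, among them Cpe and Ndrg2, a stress-response protein of astrocytes, whose 14-exon structure had 59 and 40 reads. Synaptic vesicle genes had 13 of 27, cytoskeleton and transport genes 16 of 37, and glycolysis 5 of 14. Aldoa, the glycolytic aldolase, had 50 and 38 reads of a 7-exon structure, 2.34% and 2.57% of compatible reads. Postsynaptic genes had 6 of 18, led by Camk2b, whose 11-exon structure had 91 and 63 reads, 30.6% and 24.7% of compatible reads and 12.4% and 9.97% of all reads of the gene. Translation genes had 6 of 20, with Eef2, the translocation factor of elongation, at 24 and 43 reads of an 8-exon structure. Splicing and RNA-binding genes had 6 of 25, ion pumps 4 of 17 and mitochondrial enzymes 6 of 29. Myelin genes had 2 of 12, with Bcas1, a protein of maturing oligodendrocytes, at 37 and 21 reads of a 10-exon structure and no read of a matching transcript. Chaperones and proteasome subunits had 5 of 33, led by Psmc2 and by Hsp90aa1, the stress-inducible cytosolic Hsp90, whose 10-exon structure had 72 and 49 reads, and microglial and vascular genes 0 of 6. A structure needs 10 reads, so a gene with more reads can have one more readily, and the lists differ in read depth.

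A further list held genes known from textbooks to use internal promoters. Of 13 such genes with 100 or more reads, 2 had an abundant suffix structure (15.4%, beside 14.2% of all genes at that depth). Rtn1, a reticulon with known short forms, had 38 and 56 reads of a 7-exon structure that opens at exon 3 of Rtn1-202, an exon of 762 bases, and 8 and 12 reads of an 8-exon structure at exon 2. Exon 3 opened 70.4% and 70.9% of its suffix reads. Shank3, a postsynaptic scaffold with several known promoters, had 11 and 9 reads of a 2-exon structure short of 20 exons, with no read of a matching transcript. None of these 3 structures lay at an annotated start. A short form that GENCODE annotates is a full match by the deposited classes, and is not counted here.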

How the data were processed

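The 2 libraries were analysed from the deposited transcript tables and annotation files. The deposited tables give raw read counts per transcript model, per the file headers, with no normalization and no minimum. Other deposited columns, per the file headers, hold descriptors such as the number of exons, the length and the exon positions of each model on mm10 with GENCODE M21. The sources used here do not give the aligner or the transcript caller. Depth was 821324 mouse reads in replicate 1 and 743862 in replicate 2.

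Structures were matched between libraries by gene, strand and exact intron chain. The rule kept suffix models with 2 or more exons and 10 or more reads in either library. Ends were classed with a window of 50 bases around GENCODE M21 starts and a distance of 20 bases from exons. The kinds of annotated start were set apart after the data were seen. CPM uses mouse reads, with 0.5 read added for ratios, and shares have 95% Wilson intervals. The classing functions were tested on simulated structures. Analyses used Python 3.11.15, pandas 2.3.3 and scipy 1.17.1.

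The members and lists were chosen with earlier results of these data known. Genes were named by rules: the 20 structures with the highest mean CPM, the 8 with most reads in each position, all of the internal-promoter list, the 3 genes with most structures, the 3 structures with most exons missing, the 2 leading ones of each other list, 3 just inside and 3 just outside the threshold, and the largest ratios between libraries. Others were named after their values were seen, and some that the rules select are not reported here. With 1 group, no test between conditions was made. Alternatives changed the read minimum, windows, matching, denominators and scale, and left out each library. SIRV spike-ins were not used here.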

Additional observations from a re-analysis of the deposited data

How the results depend on the processing

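No paired analysis was possible because the 2 libraries form a single group and no result comes from a test. Against 803 structures, 2356 met a minimum of 5 reads, 280 met 20 reads and 442 were suffix models with 10 reads in both libraries. The structures' share of suffix reads was 51.1% at 5 reads and 26.2% at 20 reads, and 34.6% to 35.3% with 1 library left out. Ends at an annotated start numbered 741 at 5 reads and 108 at 20 reads, ends inside an exon 1551 and 164, and ends outside exons 54 and 7. Ends shared by the libraries numbered 1842 at 5 reads and 233 at 20 reads. These counts move by construction, since another minimum admits more or fewer structures. With 1 library left out, ends outside exons numbered 7 (without replicate 1) and 19 (without replicate 2), and the median share of compatible reads ran from 22.2% to 23.9%. With all reads of the gene as the denominator that median was 9.68%, since the denominator is larger by construction. The other alternatives for these results stayed within 1.5 times the reported count, or moved by less than the spread between libraries. Matching by introns alone, chosen after seeing the data, gave 797 structures. The 10-read rule equals 12.2 CPM in replicate 1 or 13.4 CPM in replicate 2, and it leaves 32017 other spliced suffix structures outside the description. Near that depth a structure's reads in each library carry a wide counting error.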
